A study of Sus scrofa with 64 samples.

Results

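The lymphocyte receptor genes CD3E, CD3G, CD2, CD4, CD8A and CD79B were followed through 16 tissues of 4 pigs. Every probe set, called a probe here, whose platform gene symbol is one of these 6 genes was taken, which gave 7 probes for the 6 genes, of 23935 probes that are not controls and 6790 genes with a probe of 1 symbol. CD4 had 2 probes, which are told apart by the suffixes of their design, s_at for a probe that may be shared with other transcripts and a_at for one shared by alternative transcripts of a gene. Messenger RNA levels came from 64 Affymetrix porcine arrays, 1 for each tissue and animal. The animals were a Large White male of 38.8 kg and a Large White female of 36.2 kg, both 87 days old, and an Iberian female of 32.8 kg and an Iberian male of 25.4 kg, both 89 days old. No animal was treated. The piglets were bought from 2 breeding companies and moved at weaning, and were then housed at the same time on the same diets. Blood was drawn from a vein, whereas the ileum and stomach samples were taken from the epithelium of the organ. Each animal gave 1 sample of each tissue, so that the 4 arrays of a tissue are 4 animals, 2 per breed and 2 per sex.

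T lymphocytes recognise antigen through a receptor that signals through the CD3 chains, and B lymphocytes through a membrane immunoglobulin that signals through CD79A and CD79B. CD4 and CD8 are the coreceptors of T cells, binding MHC class II and class I molecules, and CD2 is an adhesion receptor of T and natural killer (NK) cells. The ileum of the pig carries large Peyer's patches, whose follicles are rich in B cells, and lymphocytes are also found among the cells of the intestinal epithelium. Lymphocytes of the blood travel among red cells, platelets and myeloid cells. Blood and ileum thus hold both kinds of lymphocyte, and the question was how the receptor genes of T and B cells differ between these tissues and from the rest.

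Levels are log2 signals after RMA, so that 1 unit is a doubling. RMA corrects the background, normalizes the arrays together and summarises the oligonucleotides of each probe. Where quantile normalization is named below, it was applied in addition, to the deposited probe values. They are compared within a probe and not between probes. For comparisons of tissues, limma was fitted to the 64 arrays together, with terms for tissue, breed and sex. Its p-values were adjusted after Benjamini and Hochberg for the 23935 probes, and a probe passed at a false discovery rate of 0.05. In tissue samples, fewer cells of a type and less RNA per cell cannot be told apart. The arrays of biceps femoris in the Iberian female and of pineal gland in the Large White male stood apart from the other 3 arrays of their tissue, with a mean correlation to them of 0.900 and 0.932, where the other 62 arrays lay between 0.948 and 0.987. Markers fitted the labels of the compared tissues: AHSP, a chaperone of alpha globin, was at 13.04 ± 0.14 in blood and 4.04 ± 0.33 in ileum, and FABP6, the ileal bile acid binding protein, at 4.04 ± 0.09 and 13.30 ± 0.35 (SD, n = 4). The probe annotated as HBB, the beta chain of haemoglobin, was the exception, at 6.69 ± 0.39 in blood and 7.56 ± 0.22 in ileum. Whether it measures that gene is uncertain, since its annotation was not tested.

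CD3E, CD3G, CD2 and CD8A were high in blood and ileum and lower in all other tissues. For each of these 4 probes, all 8 arrays of blood and ileum lay above all 56 arrays of the other 14 tissues, a pattern found in 1.12% of all probes. Against the other 15 tissues, all 7 member probes were higher in blood (43.5% of all probes were higher, and 78.5% passed in either direction). The differences in blood were 4.87 ± 0.23 (SE) for CD3E, 3.96 for CD8A, 3.63 for CD2, 3.47 for CD3G and 2.27 for CD79B, with adjusted p from 1.8e-25 to 1.8e-11. Those of CD4 were smaller, 1.13 for the s_at probe (adjusted p = 1.3e-15) and 0.70 for the a_at probe (adjusted p = 2.4e-07). In ileum, 6 of the 7 member probes were higher than in the other 15 tissues (23.4% of all probes were higher, and 52.9% passed in either direction). CD79B led there with 4.56 ± 0.25 (SE), followed by CD3G with 4.13, CD3E with 4.10, CD8A with 3.57, CD2 with 3.47 and the CD4 a_at probe with 0.81. The CD4 s_at probe had a difference of -0.17 in ileum (adjusted p = 0.13). The 2 contrasts share 14 tissues, and blood and ileum are part of each other's reference.

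**Figure D1:**
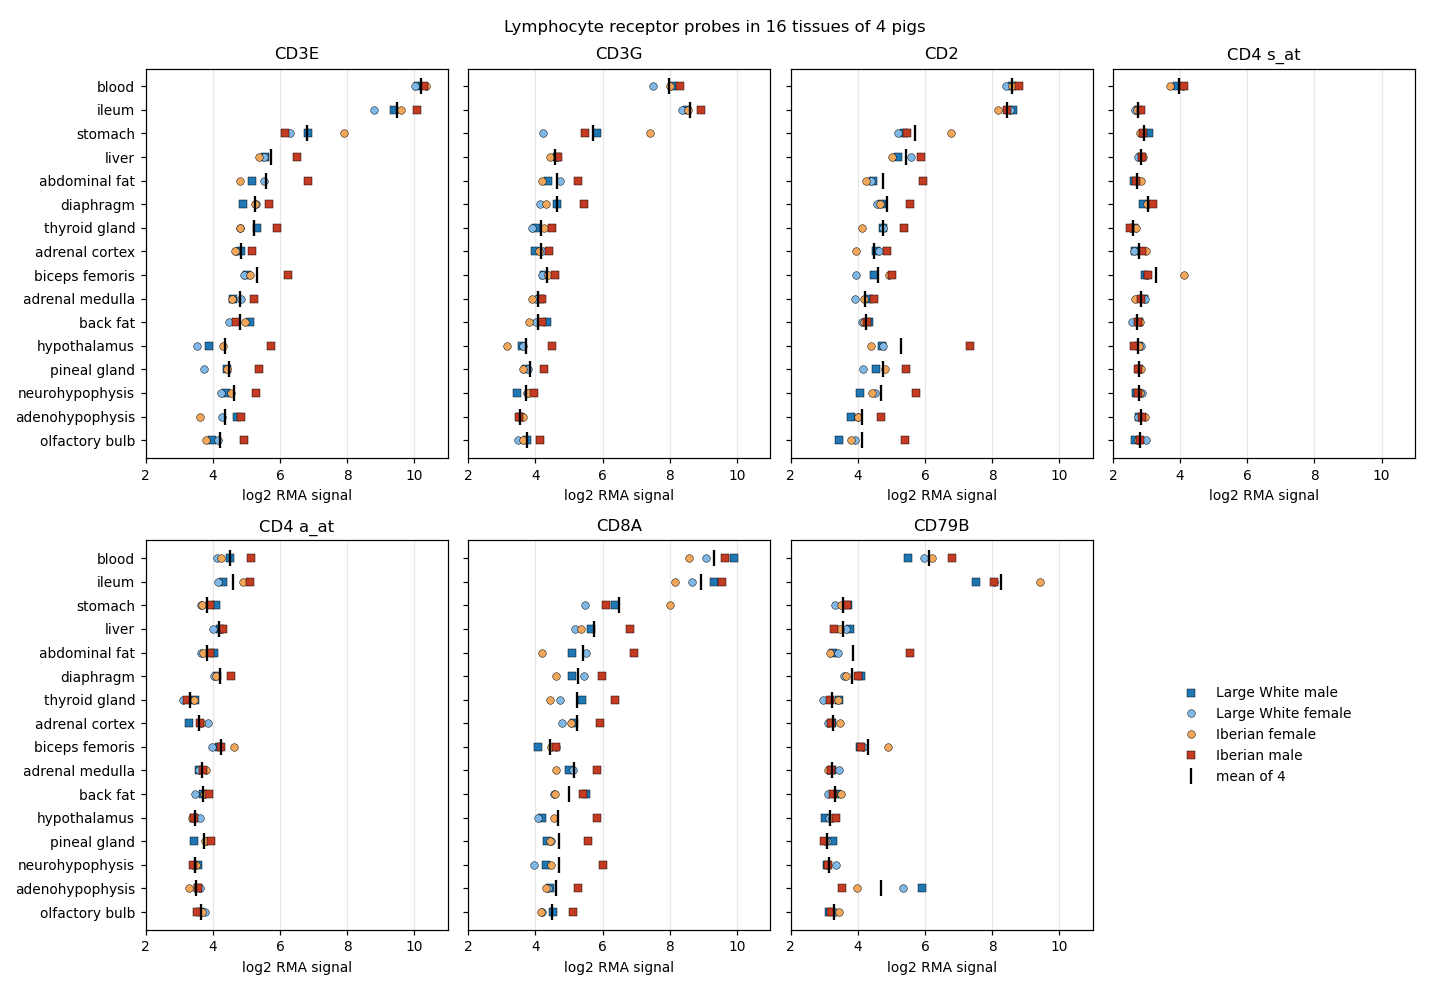
Level of each member probe (log2 RMA signal, x axis) in the 16 tissues (y axis), where each point is 1 animal and the black bar is the mean of the 4. For CD3E, CD3G, CD2 and CD8A the 8 arrays of blood and ileum lie above the other 56. The ileum arrays of CD79B and of CD3G lie above the other 60, and the CD4 probes stay at or below 5.13 throughout.

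CD3E encodes the epsilon chain of CD3. In blood it was at 10.11 in the Large White male, 10.02 in the Large White female, 10.35 in the Iberian female and 10.29 in the Iberian male. In ileum it was at 9.40, 8.80, 9.60 and 10.07 in the same order of animals. Blood was the higher tissue within each animal, although the highest ileum array exceeded the lowest blood array. The difference of 0.73 ± 0.31 (SE), a fold of 1.65, passed the test (adjusted p = 0.033 from limma). Of all probes, 72.7% passed between blood and ileum, 40.5% as higher in blood and 32.3% as lower. The call of CD3E was lost without the Large White male (0.73, adjusted p = 0.087 from limma) and without the Large White female (0.56, adjusted p = 0.19). Quantile normalization raised the difference to 1.20 (adjusted p = 0.00059).

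CD3G, the gamma chain of the same complex, ran the other way. Its levels in ileum were 8.53, 8.37, 8.54 and 8.95, and in blood 8.10, 7.50, 8.01 and 8.30, again in the order Large White male, Large White female, Iberian female and Iberian male. The lowest ileum array thus lay above the highest blood array, which held in this direction for 27.7% of all probes. The difference of blood minus ileum was -0.62 ± 0.27 (SE), a fold of 1.54 (adjusted p = 0.039 from limma). The call was lost without the Large White male (-0.69, adjusted p = 0.097), without the Large White female (-0.54, adjusted p = 0.11) and without the Iberian male (-0.61, adjusted p = 0.11), and quantile normalization left a difference of -0.05 (adjusted p = 0.89). In each animal the difference of CD3E lay above that of CD3G, by 1.14, 2.09, 1.29 and 0.87 log2 units. After quantile normalization these values were 1.06, 2.04, 1.16 and 0.75, so the gap between the chains remained where the call of CD3G did not.

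CD2 was at 8.60, 8.40, 8.58 and 8.79 in blood and at 8.63, 8.54, 8.16 and 8.45 in ileum. The arrays of the tissues overlapped and the difference of 0.15 ± 0.35 (SE) did not pass (adjusted p = 0.71). After quantile normalization the difference was 0.71 and did not pass either (adjusted p = 0.067). CD8A, the alpha chain of the CD8 coreceptor, was at 9.92, 9.09, 8.58 and 9.64 in blood and at 9.32, 8.68, 8.17 and 9.56 in ileum. The animals kept a similar order in both tissues, with the males above the females, and blood was the higher tissue in 4 of 4 animals. The difference of 0.37 ± 0.38 (SE) did not pass (adjusted p = 0.37), but after quantile normalization it was 0.91 (adjusted p = 0.028). That SE does not use the pairing of the tissues, and the differences within the 4 animals had an SD of 0.22. With the 8 arrays alone and a block for the animal the difference did not pass either (adjusted p = 0.055 from limma).

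The probes of CD4 gave different pictures. The s_at probe was at 3.92, 4.08, 3.69 and 4.13 in blood and at 2.75, 2.67, 2.70 and 2.84 in ileum. All 4 blood arrays lay above all 4 ileum arrays, as for 35.1% of all probes, and the difference of 1.21 ± 0.13 (SE) passed (adjusted p = 8.2e-12). Quantile normalization lowered it to 0.76 (adjusted p = 7.6e-07), and no fold is given because the ileum level was near the lower end of the scale. The a_at probe was at 4.51, 4.11, 4.23 and 5.13 in blood and at 4.29, 4.14, 4.90 and 5.09 in ileum. Its arrays overlapped, and the difference of -0.11 ± 0.15 (SE) did not pass (adjusted p = 0.53). After quantile normalization it was -0.46 (adjusted p = 0.015), and without the Iberian female 0.080 (adjusted p = 0.71). The 2 probes were among the dimmer ones of the arrays. The s_at probe exceeded 15.3% to 22.7% of the probes on each blood array and 5.67% to 8.84% on each ileum array. The a_at probe exceeded 21.2% to 42.8% in blood and 29.9% to 44.2% in ileum.

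CD79B, the signalling chain of the B cell receptor, showed the largest difference of the 7 probes in blood against ileum. It was at 7.53 in the ileum of the Large White male, 8.07 in that of the Large White female, 9.42 in that of the Iberian female and 8.07 in that of the Iberian male. In blood the same animals had 5.49, 5.99, 6.20 and 6.82. Every ileum array lay above every blood array, and also above all 60 arrays of the other tissues, as in 2.21% of all probes. The same held for the T cell gene CD3G. The difference of blood minus ileum was -2.15 ± 0.35 (SE), a fold of 4.43 (adjusted p = 3.4e-07 from limma), and it passed under every alternative that kept the probe. In all, 2 of the 7 probes were higher in blood, CD3E and the CD4 s_at probe, 2 were lower, CD3G and CD79B, and 3 did not pass. The groups did not overlap for 3 of the 7, where this held in either direction for 62.7% of all probes. The median over the 7 was 0.15, where that of all probes was 0.14.

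**Figure D2:**
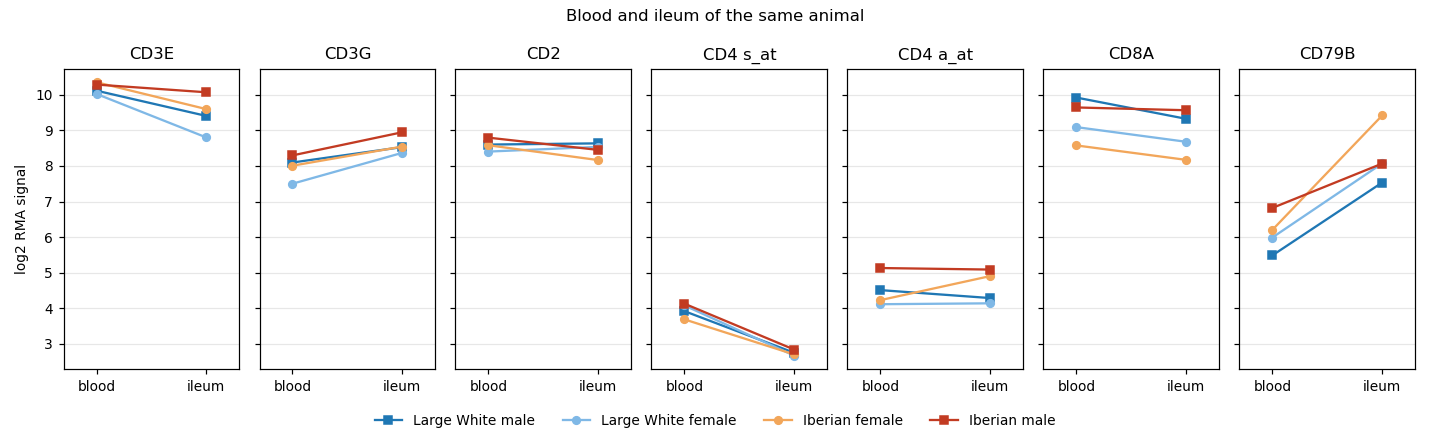
Level (log2 RMA signal, y axis) of each member probe in blood and ileum, where a line joins the samples of 1 animal. The lines of CD79B and CD3G rise from blood to ileum in all 4 animals, those of CD3E, CD8A and the CD4 s_at probe fall, and those of CD2 and the CD4 a_at probe cross.

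Within each animal, CD79B changed differently from every T cell member. Its difference of blood minus ileum lay below that of CD3E in each of the 4 animals, with gaps of -2.76, -3.30, -3.97 and -1.46 log2 units and a mean of -2.87 ± 1.06 (SD, n = 4). The mean gap was -2.52 to CD8A, -2.30 to CD2, -1.53 to CD3G, -3.36 to the CD4 s_at probe and -2.04 to the CD4 a_at probe. All 6 gaps were below 0 in 4 of 4 animals. The exact sign-flip permutation test over the 4 animals, two-sided, gave p = 0.13 for each, also after adjustment over the 6, which is the smallest p that 4 animals allow.

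The deposited values of blood were spread less widely than those of ileum. Their SD over probes was 1.82 in blood and 2.16 in ileum, with an upper quartile of 6.73 and 7.16. Bright probes were accordingly lower in blood and dim probes higher: the median difference was -0.61 for the 1472 probes with a mean level of 8 to 9 in these tissues, and 0.63 for the 3772 probes with a level of 3 to 4. Against probes of like level, CD3G with -0.62 sat at the middle, with 49.1% of them below it. CD3E exceeded 89.4% of the probes of its level, CD8A 83.6%, CD2 79.7% and the CD4 s_at probe 91.9%, whereas the CD4 a_at probe exceeded 25.5% and CD79B 5.64%. Quantile normalization made the distributions equal, and these shares were then 47.9% for CD3G, 88.0% for CD3E, 83.7% for CD8A, 78.7% for CD2, 88.4% and 29.4% for the CD4 probes and 4.73% for CD79B. The place of each member among probes of its level therefore moved little, while its difference moved by up to 0.57 log2 units.

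**Figure D3:**
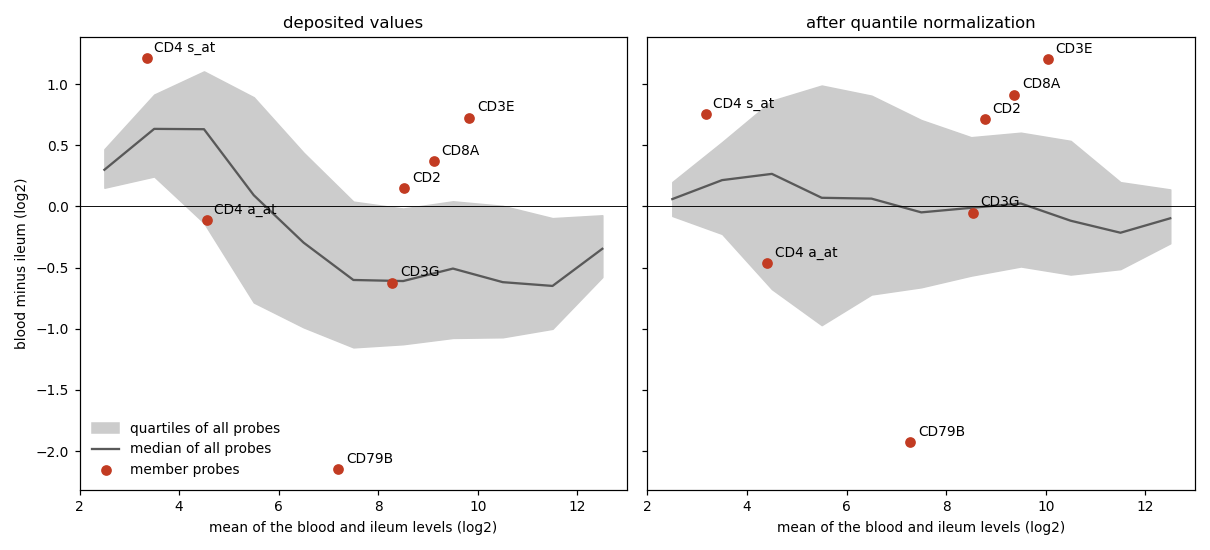
Difference of blood minus ileum (log2, y axis) against the mean of the 2 levels (log2, x axis), with the deposited values on the left and after quantile normalization on the right. The grey band spans the quartiles and the line is the median of all probes in steps of 1 log2 unit, and the red points are the 7 member probes; CD79B lies far below the band in both panels, and CD3G on the median line.

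Of the 38 genes listed for the T cell receptor and its signalling, 16 were measured. Of these 16, 11 were higher in blood than in ileum, 1 was lower and 4 did not pass, with a median of 0.78. Of all probes, 40.5% were higher in blood and 32.3% lower, with a median of 0.14, against which this and the following lists are to be read. GATA3 (1.95), LEF1 (1.68), CD40LG (1.58) and TXK (1.39) had the largest differences upwards. GATA3 and LEF1 are transcription factors of T cells, CD40LG is the ligand by which T cells help B cells and TXK is a kinase of the Tec family. RASGRP1, an activator of Ras, was the gene that was lower in blood (-1.34). The CD3 delta chain CD3D, whose gene lies between those of CD3E and CD3G in the RefSeq table, was higher in blood by 0.86 ± 0.22 (SE, adjusted p = 0.00040 from limma). CD247, the zeta chain, was higher by 0.72 ± 0.33 (SE, adjusted p = 0.049). LCK, the kinase that binds the coreceptors, had a difference of 0.07 (adjusted p = 0.81), and CD8B, which pairs with CD8A, one of -0.12 (adjusted p = 0.59).

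The B cell list holds genes of receptor signalling together with transcription factors and plasma cell genes, and 8 of its 33 genes were measured. Of these 8, 6 were lower in blood than in ileum (32.3% of all probes), 1 was higher (40.5%) and 1 did not pass, with a median of -1.37. IRF8 (-2.37), XBP1 (-2.26), BLNK (-2.15) and JCHAIN (-1.37) had the largest differences. BLNK is the adaptor that the B cell receptor phosphorylates, IRF8 and XBP1 are transcription factors, and JCHAIN joins the units of secreted IgA and IgM. Among the signalling genes of the list, BLNK and BTK (-0.68) were lower in blood. LYN, a kinase of B cells and also of myeloid cells, was the gene that was higher in blood (0.60). XBP1 is also abundant in secretory cells, and its level in the 14 other tissues, 10.12 ± 0.76 (SD over 56 arrays), was close to that in ileum, 10.34 ± 0.17 (SD, n = 4).

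Cytotoxic and NK cell genes were higher in blood in 6 of 8 cases and lower in 0, with a median of 1.40. For this list and the next 2, the shares of all probes were 40.5% higher and 32.3% lower. The largest differences were those of GNLY (2.89) and FCGR3A (1.91), with KLRK1 (1.81) and GZMH (1.41) next, which are granule proteins or receptors of such cells. Of the 8 genes of the partners of the members, 3 were higher and 3 lower. The MHC class II chains SLA-DRA (-1.39) and SLA-DQA1 (-1.05) and the complement regulator CD59 (-1.79) were lower in blood, and the phosphatase PTPN6 was higher (0.80), as were CD58 and PTPRC. Of the 9 genes found in leukocytes in general, 4 were higher in blood (CORO1A 1.18, WAS 1.06, ITGB2 0.87 and PTPRC 0.65) and 5 did not pass, with a median of 0.26. The direction of CORO1A depended on the probe: the probe used had the highest mean over all arrays, while its other probes, with higher means in both blood and ileum, had differences of -0.60 (adjusted p = 0.046) and -0.11 (adjusted p = 0.72). Of the 26 listed genes with more than 1 probe, 2 had a probe that passed in the opposite direction to a brightest probe that passed, CORO1A and MCM2. Where the brightest probe did not pass, other probes could. Those that passed ran from -0.77 to 3.92 for B2M, and were at 1.23 for RAC2, 0.56 for CD53 and -0.63 and -0.39 for LCP1. Another probe of CD59 was at 0.57 (adjusted p = 0.087 from limma).

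The other cells of the samples differed as well, and their part in the results of the members was not tested. Between these tissues 40.5% of all probes were higher in blood and 32.3% lower. Of 9 myeloid genes 8 were higher in blood and 1 was lower, led by S100A9 (6.19), TREM1 (4.10), S100A12 (2.18) and S100A8 (1.96). Of 6 red cell and platelet genes 5 were higher, led by AHSP (8.99), ALAS2 (8.38), PPBP (6.05) and ITGA2B (3.44). All 7 enterocyte genes were lower in blood, led by FABP6 (-9.25), SLC5A1 (-7.58), VIL1 (-5.97) and ANPEP (-5.83). Of 10 genes of lymphoid follicles and homing, 7 were lower and 2 higher, and the chemokines CCL19 (-6.21), CCL25 (-4.21), CXCL13 (-4.14) and CCL21 (-2.69) led. All 9 genes of the cell cycle were lower in blood by their brightest probe, led by CCNB2 (-3.75), CCNB1 (-3.75), TOP2A (-3.43) and AURKA (-2.09), although the other probes of MCM2 were higher by 0.52 and 0.46. The thymocyte list had 1 measured gene, RAG1, at 3.68 ± 0.30 in blood and 3.12 ± 0.14 in ileum (SD, n = 4, difference 0.56). The mean level of the enterocyte list was 4.26 to 4.59 on the blood arrays and 9.15 to 10.95 on the ileum arrays, and that of the cell cycle list was 5.84 to 5.90 and 7.85 to 8.68.

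**Figure D4:**
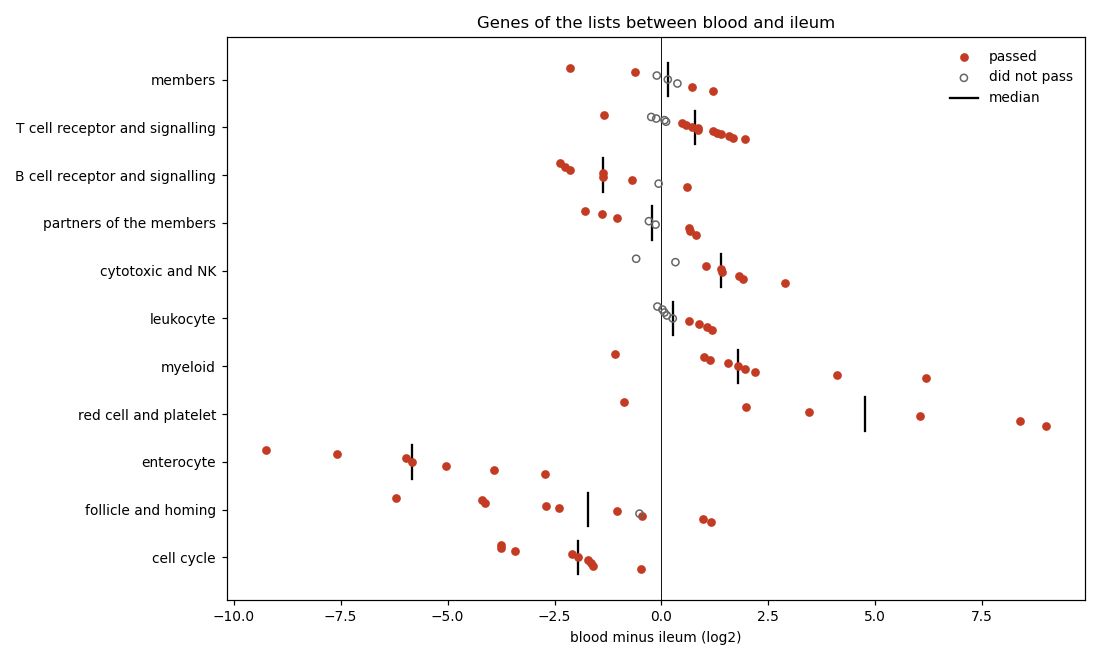
Difference of blood minus ileum (log2, x axis) of the 7 member probes and of each measured gene of 10 lists (y axis), where red points passed the test, open points did not, and the black bar is the median. The T cell and cytotoxic genes lie mostly above 0 and the B cell, follicle and cell cycle genes mostly below, with medians of 0.78, 1.40, -1.37, -1.73 and -1.94.

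After blood and ileum, CD3E, CD3G, CD2 and CD8A each had their highest mean in the stomach. CD3E was at 6.84, 6.30, 7.90 and 6.13 in the stomach, in the order of animals given above, and CD3G at 5.83, 4.22, 7.40 and 5.47. CD8A was at 6.39, 5.48, 8.02 and 6.12 and CD2 at 5.38, 5.20, 6.78 and 5.46. The Iberian female was the highest animal for all 4 probes, and the animals differed by 1.58 to 3.18 log2 units. The stomach exceeded all 13 remaining tissues for CD3E and CD3G, 12 for CD8A and 10 for CD2, in tests where 33.0% to 53.4% of all probes passed. CD79B was at 3.72, 3.32, 3.49 and 3.68 there and exceeded 0 of the 13. The enterocyte list was also highest in the stomach of the Iberian female, at 5.52 against 4.28 to 4.73 in the other animals, as were the cell cycle list (5.95 against 5.04 to 5.12) and the B cell list (7.51 against 6.74 to 7.07). The mean level of the T cell list did not single out the stomach, at 4.70 there, 4.77 in abdominal fat, 4.73 in adrenal cortex and 4.71 in adrenal medulla.

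The order of the remaining tissues was resolved only in part. For CD3E, 3 of the 15 steps between neighbouring tissues passed, from blood to ileum, stomach and liver. Of all probes 35.2% passed between ileum and stomach and 35.4% between stomach and liver. From liver (5.73 ± 0.53) down to olfactory bulb (4.21 ± 0.50, SD, n = 4) no neighbours differed beyond their error. CD3G also had 3 such steps, from ileum to blood, stomach and abdominal fat (4.65 ± 0.48), where 69.4% and 33.0% of all probes passed in the last 2, with its lowest mean in the adenohypophysis (3.55 ± 0.06). CD2 and CD8A had 1, from ileum to stomach, because blood and ileum did not pass. In liver CD2 was at 5.42 ± 0.38 and CD8A at 5.76 ± 0.74. The lowest means were those of CD2 in the adenohypophysis (4.13 ± 0.40) and of CD8A in biceps femoris (4.44 ± 0.25). Brain, pituitary and pineal samples made up most of the lower end of CD3E, CD3G and CD8A, with means of 3.55 to 4.70.

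CD79B ranked differently outside blood and ileum. Its next tissue was the adenohypophysis, at 5.91 in the Large White male, 5.34 in the Large White female, 3.98 in the Iberian female and 3.52 in the Iberian male. The Large White animals were thus above the Iberian ones, and the step from blood to the adenohypophysis passed (75.5% of all probes), as did that from ileum to blood. Its mean was above those of all 13 remaining tissues, and 12 of these differences passed, biceps femoris being the exception, in tests where 19.8% to 64.9% of all probes passed. The B cell list ran from 5.35 to 5.60 in these 4 arrays, and there the Iberian male was highest. In abdominal fat CD79B was at 3.27, 3.40 and 3.18 in the first 3 animals and at 5.56 in the Iberian male. On that array the B cell list was at 6.68, against 5.60 to 5.72 in the other animals, and the follicle and homing list at 6.08 against 4.95 to 5.10. CD79B was lowest in the pineal gland (3.09 ± 0.11, SD, n = 4).

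The CD4 probes separated tissues to different degrees. The s_at probe passed in 1 of 15 neighbouring steps, from blood to biceps femoris (64.5% of all probes), and in 33 of 120 pairs of tissues. There the level was 2.96, 3.01 and 3.05 in 3 animals and 4.11 in the Iberian female, whose array stood apart. Elsewhere its tissue means lay between 2.59 and 3.03, and ileum ranked 13th of 16. The a_at probe passed in none of the 15 steps, but its means ran from 4.60 in ileum to 3.31 in the thyroid gland, and 62 of its 120 pairs of tissues passed, where 0.593% to 77.2% of all probes passed in a pair. Muscle and liver followed ileum and blood on this probe, with 4.25 ± 0.28 in biceps femoris, 4.20 ± 0.22 in diaphragm and 4.19 ± 0.13 in liver (SD, n = 4).

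Among the 14 tissues other than blood and ileum, the Iberian male had the highest level of the 4 animals in 12 tissues for CD3E, 12 for CD2, 12 for CD8A and 11 for CD3G. A count of 12 or more was found in 0.359% of all probes and one of 11 or more in 0.681%, and the median count over all probes was 3. The Iberian male exceeded the mean of the other 3 animals by 1.01 ± 0.65 (SD over 14 tissues) for CD8A, 0.89 ± 0.76 for CD2, 0.78 ± 0.70 for CD3E and 0.39 ± 0.40 for CD3G. The 14 values of an animal are not replicates, and 1 animal of its breed and sex was measured, so that no test was made. The hypothalamus stood out, with CD2 at 4.72, 4.74 and 4.38 in the first 3 animals and 7.34 in the Iberian male, CD3E at 3.90, 3.53, 4.29 and 5.72, and CD8A at 4.19, 4.07, 4.56 and 5.84. In abdominal fat CD8A was at 5.08, 5.51, 4.19 and 6.92 and CD3E at 5.16, 5.51, 4.79 and 6.84. The exceptions were the stomach, where the Iberian female was highest for all 4 probes, the back fat, where the Large White male was, and CD3G in the adenohypophysis.

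CD79B and CD4 did not share this pattern. The Iberian male was the highest animal in 2 of the 14 tissues for CD79B, in 1 for the CD4 s_at probe and in 4 for the CD4 a_at probe, counts reached by 79.5%, 92.7% and 42.8% of all probes. Among the leukocyte genes 5 of 9 reached 11 tissues, namely CD53, LCP1, LAPTM5, ITGB2 and RAC2, and among the cytotoxic genes GZMH and CCL5 did. Of 16 T cell genes LCK did so, of 8 B cell genes JCHAIN, and of 9 cell cycle genes CCNB2. Of the 9 myeloid, 6 red cell and platelet, and 7 enterocyte genes 0 did, and the highest counts there were 7, 6 and 5. The leukocyte gene CORO1A was counted by its brightest probe, which reached 1 tissue, whereas another of its probes reached 11. In blood the Iberian male exceeded the mean of the other 3 animals by 0.12 for CD3E, 0.43 for CD3G, 0.27 for CD2, 0.45 for CD8A and 0.93 for CD79B. It was not the highest animal in blood for CD3E, where the Iberian female was, or for CD8A, where the Large White male was. In ileum its excess was 0.80 for CD3E, 0.47 for CD3G, 0.005 for CD2, 0.84 for CD8A and -0.27 for CD79B. There it was the highest animal for CD3E, CD3G and CD8A. Its differences of blood minus ileum, 0.22 for CD3E and 0.08 for CD8A, were the smallest of the 4 animals.

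**Figure D5:**
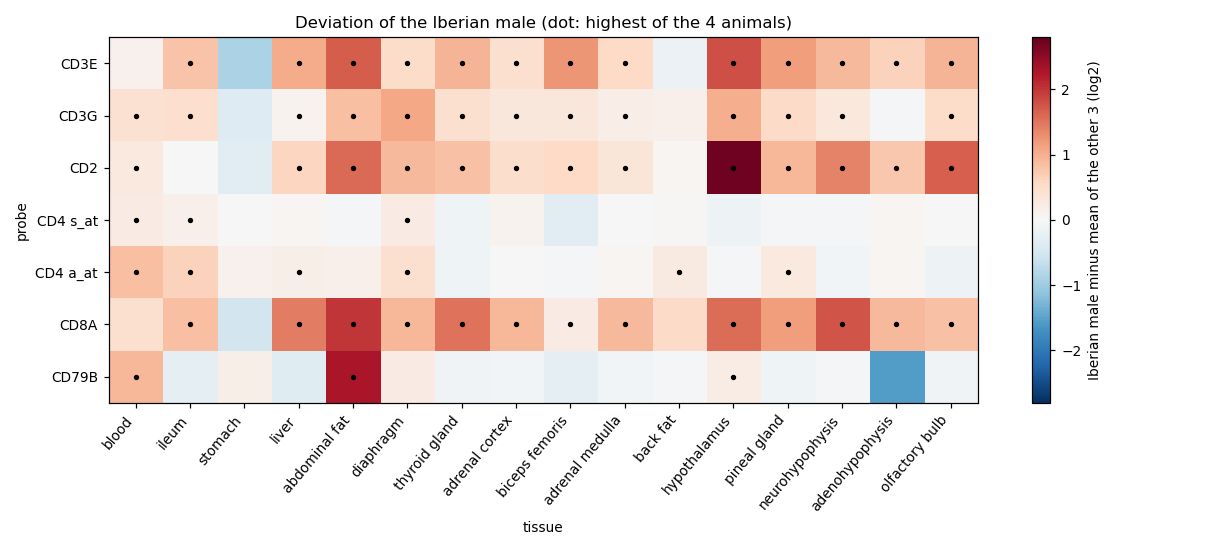
Level of the Iberian male minus the mean of the other 3 animals (log2, colour) for each member probe (y axis) and tissue (x axis), where a dot marks the tissues in which this animal was the highest of the 4. CD3E, CD3G, CD2 and CD8A are dotted in 11 or 12 of the 14 tissues right of ileum, and CD79B in 2, with its largest excess in abdominal fat.

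The breeds and sexes were compared on the means of the 16 tissues in each animal, 2 animals against 2. By limma 0 of the 7 member probes passed for breed, where 0.0919% of all probes did, and 2 had an unadjusted p under 0.05. For sex 0 passed, where 0.0627% of all probes did, and 3 had an unadjusted p under 0.05. The differences of Large White minus Iberian were -0.42 for CD3E (adjusted p = 0.33), -0.42 for CD2 (adjusted p = 0.44), -0.39 for CD8A (adjusted p = 0.51) and -0.27 for CD3G (adjusted p = 0.29). Those of male minus female were 0.66 for CD8A, 0.44 for CD3E, 0.41 for CD2 and 0.25 for CD3G (adjusted p = 0.9995 for each). The Iberian male is on the higher side of both comparisons. Over the 14 tissues other than blood and ileum, CD3E averaged 4.91, 4.73, 4.86 and 5.61, with the Iberian male last, and CD8A 4.94, 4.75, 4.81 and 5.85. Differences of breed and of sex thus cannot be told apart from that animal. With the 64 arrays taken as replicates, which ignores that an animal gave 16 of them, CD3E, CD2 and CD8A passed for breed (12.7% of all probes) and CD3E and CD8A for sex (1.45%).

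The difference between blood and ileum was also compared between breeds and between sexes. By limma 0 of the 7 members passed for breed (0.234% of all probes) and 0 for sex (0.159%), and 0 had an unadjusted p under 0.05 in either. CD2 was lower in blood than in ileum by 0.03 and 0.13 log2 units in the Large White animals and higher by 0.42 and 0.34 in the Iberian animals (interaction -0.46, adjusted p = 0.96). The CD4 a_at probe was higher in blood in the males, by 0.22 and 0.04, and lower in the females, by 0.03 and 0.68 (interaction 0.48, adjusted p = 0.76).

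The genes whose 16 tissue means resembled those of a member most were taken from 4649 probes of named genes whose means spanned at least 2 log2 units. For CD3E they were LCK (r = 0.993), CD3D (0.987) and IL2RG (0.985), for CD8A LCK (0.986), CD3D (0.982) and IL2RG (0.975), and for CD3G LCK (0.989), IL2RG (0.985) and CD8B (0.979). IL2RG is the common chain of several interleukin receptors, and it was at 9.09 ± 0.32 in blood and 8.89 ± 0.29 in ileum (SD, n = 4). For CD2 they were TNFAIP8L2 (0.987), PTPRC (0.976) and CD86 (0.974). CD79B was nearest to ZP3 (0.957), AQP8 (0.953) and CDC20 (0.948), and the CD4 probes to NDOR1 (0.974), STRADB (0.974) and ICA1 (0.972) for s_at, and CCL4 (0.899), XPNPEP2 (0.890) and SPIB (0.885) for a_at. These correlations are descriptions over 16 tissues that share the animals and arrays, and those of the T cell members rest largely on blood and ileum.

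Among themselves, the members of T cells other than CD4 varied together beyond blood and ileum, CD2 less closely than the rest. Over the 14 other tissue means the correlation of CD3E was 0.971 with CD3G (Spearman's rho 0.930), 0.880 with CD8A (0.745) and 0.691 with CD2 (0.596). That of CD3E with CD79B was 0.164 (0.459), where it was 0.837 (0.635) over all 16 tissues. The CD4 probes correlated with each other at 0.770 (0.670) over the 14 tissues, but with CD3E at 0.261 (0.319) for s_at and 0.492 (0.626) for a_at. Within tissues, after the tissue mean was removed from the 64 arrays, CD3E correlated with CD8A at 0.808 (0.705), and at 0.582 over the 48 arrays without the Iberian male. With CD2 these values were 0.791 (0.652) and 0.423. All of these are given as descriptions, since the arrays share animals.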

How the data were processed

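RNA of 16 tissues from 4 pigs was hybridised to 64 Affymetrix porcine arrays. The authors made the signals with GCOS (named in the submitters' processing notes too), examined them with the Affy package and normalized the set by RMA in libaffy. Versions not given in the sources used here are left out. Deposited are log2 signals, from 1.78 to 14.47, and 0 columns were without a sample. An array has no sequencing depth, and 4 arrays per tissue limit the precision. The deposited distributions still differ between tissues, as shown for blood and ileum.

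Of 24123 probe sets, 188 controls were left out. The platform annotation gave 10110 probes 1 symbol, 157 several and 13668 none, and it can be old. All 7 member probes were found in the RefSeq table of Sscrofa11.1, which changed 0 of their symbols. No build is named for the probes, so no coordinates are given, and no sequences were at hand. Groups came from the titles of the samples, by tissue, breed and sex.

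The limma package (3.58.1, R 4.3.3) fitted the contrasts over 64 arrays with tissue, breed and sex, adjusted after Benjamini and Hochberg over 23935 probes. The fit was tested on simulated data. Descriptions were made with scipy 1.17.1, pandas 2.3.3, numpy 2.4.6 and matplotlib 3.10.9 under Python 3.11.15. A gene with several probes was taken by its brightest one. Named genes were all member probes, of each of 11 lists the 4 genes with the largest difference between blood and ileum, and for each member the 3 genes of most similar tissue means. Of 194 listed entries 90 had a probe. Any other gene named was chosen with its values in view. The members and lists were chosen with earlier results of these data known.

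The samples of 1 animal are paired by the design. Blood and ileum of the same animal, after removal of the tissue means, correlated at 0.204, 0.104, 0.109 and 0.181 over all probes, and those of different animals at -0.136 to 0.0457. Alternatives were a block for the animal, quantile normalization, median centring, the natural logarithm of the log2 values (a further logarithm is named in the methods), the brighter probes, other settings of eBayes, 8 arrays alone and each animal left out. Leaving out the arrays that stood apart was added after seeing the data.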

Additional observations from a re-analysis of the deposited data

Results flagged for a closer look

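In 13 of the 112 groups of 4 animals (7 probes in 16 tissues), 1 animal lay so far from the other 3 that its gap exceeded Dixon's 95% critical value. For normally distributed values chance flags about 1 in 20 groups, and the groups share animals and arrays. The share flagged over all probes was not determined, so whether 13 of 112 is unusual for these arrays is not known. In 8 of the 13 the Iberian male was the highest animal. These were CD2 in hypothalamus (7.34 against 4.38 to 4.74), in abdominal fat (5.95 against 4.26 to 4.45) and in diaphragm (5.56 against 4.58 to 4.74), CD3E in liver (6.51 against 5.36 to 5.54) and in biceps femoris (6.25 against 4.91 to 5.10), CD8A in pineal gland (5.57 against 4.34 to 4.46) and in adenohypophysis (5.28 against 4.30 to 4.44), and CD79B in abdominal fat (5.56 against 3.18 to 3.40).

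The Iberian female was the highest animal for CD2 in stomach (6.78 against 5.20 to 5.46) and for the CD4 s_at probe and CD79B in biceps femoris (4.11 against 2.96 to 3.05, and 4.90 against 4.05 to 4.15), where its array stood apart from the others of the tissue. CD3G in liver was lowest in the Iberian female (4.43 against 4.64 to 4.68). CD79B in neurohypophysis was highest in the Large White female (3.35 against 3.07 to 3.11).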

How the results depend on the processing

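Of 351 recomputed values, 326 kept their direction and their side of the threshold, or stayed within the spread. Between blood and ileum 4 members passed. Under the natural logarithm 2 passed, and without 1 animal 2 to 4 did. Among the brighter probes 2 of the 7 members are left, by construction, of which 1 passed between blood and ileum and 2 in blood and 2 in ileum against the other tissues. With the 64 arrays as replicates 3 members passed for breed and 2 for sex. The difference of CD79B from the CD4 a_at probe was -1.46 after quantile normalization. The CD4 a_at difference between blood and ileum ran from -0.22 to 0.080 when each animal was left out, with 0.080 without the Iberian female, so its direction is not settled. The replicate block for the animal, fixed or random, left 4 members between blood and ileum, 7 in blood and 6 in ileum against the other tissues, and changed no call, with CD79B at -2.15 (adjusted p = 4.3e-07 from limma with the fixed block). Without the arrays that stood apart the counts were again 4, 7 and 6. Signals near the lower end of the scale, as of CD4, limit what can be seen in dim tissues, and the number of animals limits all comparisons of animals. The cause of the changes was otherwise not tested.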

Other observations

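The pattern of the Iberian male reached beyond lymphocyte genes. Of all probes, 163 were highest in this animal in at least 11 of the 14 tissues other than blood and ileum. Such a number was not determined for the other animals. The mean count over all probes was 3.35 in the Iberian male, 3.42 and 3.58 in the Large White male and female and 3.65 in the Iberian female. The named ones of the 163 included genes induced by interferon, which were chosen after their values were seen. ISG15 and MX1 were highest in this animal in 14 of 14 tissues, with a mean excess over the other 3 animals of 1.35 and 1.17 log2 units. RSAD2 was highest in 13 (1.65), IFIT3 in 13 (0.84), OAS1 in 11 (0.89) and EIF2AK2 in 12 (0.69). Genes of antigen processing and presentation were among them as well, with TAP1 highest in 11 tissues (0.73), PSMB8 in 12 (0.64) and SLA-DRB1 in 11 (0.83).

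Several of these genes, though not all, were also high in blood and ileum. Against the other 15 tissues RSAD2 was higher by 2.88 in blood and 2.18 in ileum, ISG15 by 2.75 and 1.75, OAS1 by 2.16 and 1.61, PSMB8 by 2.37 and 2.60, TAP1 by 1.49 and 2.54, IFIT3 by 3.92 and 1.06 and MX1 by 1.37 and 0.67. EIF2AK2 was higher by 0.71 and 0.69, and XAF1, highest in the Iberian male in 13 tissues, by 0.48 and 0.93. ISG12(A), also induced by interferon and highest in this animal in 11 tissues, differed by -3.39 in blood and 1.69 in ileum. CD3E was higher by 4.87 and 4.10. C1QA, a complement gene of macrophages, was highest in the Iberian male in 12 tissues (0.94), and its difference from the other 15 tissues was -3.35 in blood and 1.64 in ileum. The counts describe 1 animal and carry no test.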
